A study of Mus musculus with 8 samples.

Results

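Malat1 and Neat1 are neighbouring long noncoding RNA genes on mouse chromosome 19. All short-read table entries on either strand that overlap the GENCODE M21 genes Malat1 and Neat1, or that lie between them, were taken, together with every long-read transcript of the same interval. The interval is chr19:5795690-5845478 (mm10), 49789 bp long, and holds 3 of the 65265 short-read entries and 9 of the 196683 long-read transcripts. Both genes lie on the minus strand, so Neat1 (chr19:5824708-5845478) is transcribed towards Malat1 (chr19:5795690-5802672), and 22035 bp separate them. GENCODE annotates 8 genes here, and Malat1 and Neat1 are both lincRNA genes. Gm27694 and the plus-strand gene Gm37376 lie inside Malat1, and 3 genes (Gm27533, Gm27505 and Gm28006) lie inside Neat1. Gm27694 and those 3 have the biotype misc_RNA. The 56-base sRNA gene Gm27702 touches the 3′ end of Neat1.

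All libraries came from HL1, a mouse line of atrial cardiomyocyte origin grown with norepinephrine, with no other treatment or genotype. Purified nuclei were split with a buffer of urea and detergent into a soluble extract, called nucleoplasm, and a pellet, called chromatin. For short reads, 3 independent cultures gave 3 chromatin and 3 nucleoplasm libraries, each made from 100 ng of RNA depleted of ribosomal RNA and read as stranded 50 bp reads. For long reads, 2 chromatin libraries were sequenced as Nanopore cDNA after poly(A) tails had been added to the RNA. Because 1 label field calls the nucleoplasm libraries chromatin as well, groups were taken from the titles. The comparison asked which transcripts are held in the chromatin pellet.

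Malat1 is an abundant nuclear RNA that gathers in nuclear speckles, the domains where splicing factors are stored. Neat1 is made as a short polyadenylated form and a long form that start at the same site, and the long form is the scaffold around which paraspeckles are built. The mature 3′ ends of Malat1 and of long Neat1 are not made by polyadenylation: RNase P cuts the RNA in front of a tRNA-like fold, and an A-rich stretch left at the end pairs with U-rich stretches upstream in a triple helix that shields the RNA from decay.

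Both genes carry this end in the GENCODE M21 transcripts, which is shown because the ends of the entries are compared with it. Capitals mark the motifs TTTCTTTT, TTTTGCTTTT and AAAAAGCAAAA, whose letters were taken from the end of Neat1-201 after that end had been seen. The Neat1-201 stretch is its last 120 bases (chr19:5824708-5824827, minus strand), and the Malat1-201 stretch is the 120 bases up to its A-rich match (chr19:5795982-5796101, minus strand).
Neat1-201: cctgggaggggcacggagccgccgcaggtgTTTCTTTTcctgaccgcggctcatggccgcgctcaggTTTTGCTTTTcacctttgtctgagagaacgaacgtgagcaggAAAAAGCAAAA
Malat1-201: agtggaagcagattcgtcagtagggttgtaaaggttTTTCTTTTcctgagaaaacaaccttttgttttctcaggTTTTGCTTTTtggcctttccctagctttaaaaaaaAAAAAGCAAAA

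Aligned end to end with gaps allowed, these stretches were identical at 78 of 134 aligned positions (58.2%). The identity that unrelated stretches reach in such an alignment was not measured. The first and the next motif stood 30 bases apart in Malat1 and 29 in Neat1, and the A-rich motif followed after 25 and 32 bases. On the transcript strand, the only strand searched, 2 of 137364 GENCODE transcripts of at least 120 bases held the 3 motifs in this order within 120 bases, and they were Malat1-201 and Neat1-201. Neat1-201 holds them by construction, since the motifs were cut from it. The A-rich motif read on the other strand contains TTTTGCTTTT, and no motif overlapped another in these stretches. Taken singly and only at annotated ends, TTTCTTTT was in the last 120 bases of 1.40% of transcripts, TTTTGCTTTT in 0.102%, and AAAAAGCAAAA in the last 30 bases of 0.0284%. These are not base rates of the search above, which covered whole transcripts. Malat1-201 is not counted in them, since its last matches lie 292 to 368 bases before its annotated end. In these end windows only Neat1-201 held all 3.

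The bases that follow the A-rich motif are shown because they are the tRNA-like part. For Neat1 this is Gm27702, given whole (chr19:5824652-5824707, minus strand), and for Malat1 it is a stretch of the same length inside the annotated gene (chr19:5795926-5795981, minus strand) with no annotation of its own among the 8 genes.
Gm27702-201: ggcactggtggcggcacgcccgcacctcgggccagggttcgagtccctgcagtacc
Malat1-201, next 56 bases: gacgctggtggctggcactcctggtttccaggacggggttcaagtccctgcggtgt

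They were identical at 40 of 58 aligned positions (69.0%), again without a level for unrelated stretches. Annotated Malat1-201 therefore runs 292 bases beyond its A-rich motif, whereas annotated Neat1-201 stops with it. The annotated ends of Malat1-201 (chr19:5795690-5795749, minus strand) and of the short isoform Neat1-202 (chr19:5842307-5842366, minus strand) are given as a contrast, with the poly(A) signal AATAAA in capitals.
Malat1-201, last 60 bases: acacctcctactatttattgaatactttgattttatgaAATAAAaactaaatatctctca
Neat1-202, last 60 bases: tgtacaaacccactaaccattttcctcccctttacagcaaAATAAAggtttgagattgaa

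AATAAA lay 16 bases before the end of Malat1-201 and 14 before that of Neat1-202, and 27.4% of all transcripts held it in their last 50 bases. Malat1-201 has 6983 bases and 42.5% G and C, Neat1-201 has 20771 bases and 47.3%, and each is a single exon. The median lincRNA transcript of GENCODE M21 has 806 bases and 46.2% G and C.

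The short-read values are gene counts divided by a size factor for each library, called normalized counts, and they are not scaled for length. The test was limma on log2(normalized count + 1), run over the 35830 entries with a value above 0 in any of the 6 libraries, and every fold change given in log2 is on this scale. Reads recovered from the values totalled 91657034 to 100595246 in the chromatin libraries and 96684935 to 121773350 in the nucleoplasm libraries. Of 11 cardiomyocyte markers 9 had a tested entry, and their summed normalized counts ranged from 235287 to 361091 in chromatin and from 91109 to 161048 in nucleoplasm. Ryr2 and Gata4 had the highest chromatin means among them, 149517 and 80247. Nppa had means of only 20.7 in chromatin and 76.6 in nucleoplasm, and Myh6 and Tnnt2 had no entry. Fibroblast markers (5 of 5 tested) summed to 101764 to 117258 in chromatin and 212681 to 347926 in nucleoplasm, of which Col1a1, a fibrillar collagen chain, made up nearly all, while Lum was at 0 in 5 of 6 libraries. Endothelial markers (3 of 4) summed to 862 to 1552 and 1559 to 2576 with Cdh5 at 0, and macrophage markers (2 of 3) to 56.9 to 147 and 39.4 to 58.7 with Adgre1 at 0. The part of such cell differences in the results was not tested.

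**Figure D1:**
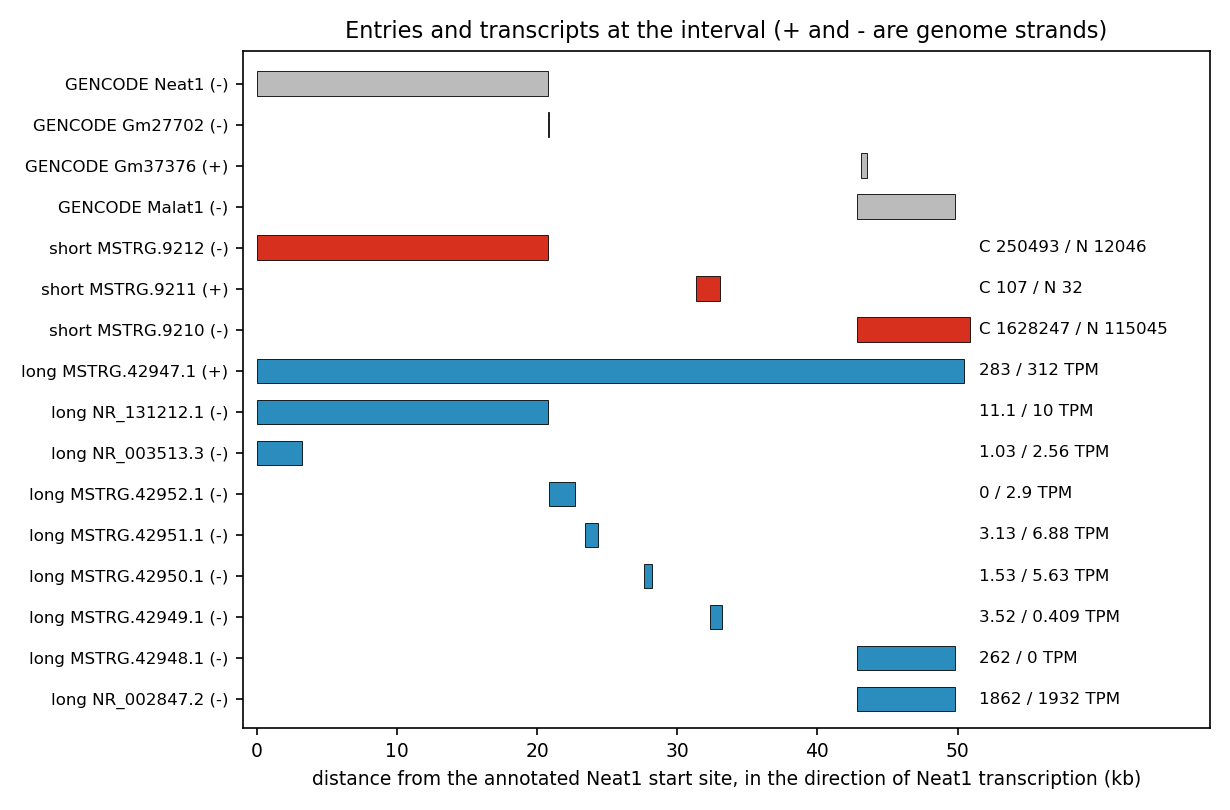
Map of the interval, with distance from the annotated Neat1 start site in kb on the x axis and a bar for each of 4 of the 8 GENCODE genes (grey), each short-read entry (red, with mean normalized counts in chromatin, C, and nucleoplasm, N) and each long-read transcript (blue, with TPM of replicates 1 and 2). Short-read entries cover Neat1 and Malat1 once each and leave a plus-strand entry of 1731 bp between them. The bounds of a plus-strand long-read transcript, 50432 bp apart, enclose the whole interval. Bars run from start to end and show no exons.

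The Malat1 entry (MSTRG.9210, chr19:5794561-5802671, minus strand, 8111 bp) ran 1129 bases past the annotated 3′ end of Malat1, and so past the A-rich and tRNA-like parts shown above. In chromatin it had 1811938, 1629137 and 1443666 normalized counts in replicates 1 to 3. In nucleoplasm it had 117007, 112363 and 115765. Every chromatin library was far above every nucleoplasm library, and the nucleoplasm values lay much closer together. The means were 1628247 ± 184138 (SD, n = 3) and 115045 ± 2404 (SD, n = 3), and the log2 fold change was 3.82 with a standard error of 0.20 (limma, adjusted p = 3.84e-05). Same-numbered libraries differed by 3.95, 3.86 and 3.64 on the log2 scale.

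The Neat1 entry (MSTRG.9212, chr19:5824708-5845480, minus strand, 20773 bp) ended at the same base as annotated long Neat1, directly behind the A-rich motif. The assembly was guided by reference transcripts, and the entry has the bounds of the reference transcript of long Neat1. Its end may thus come from the reference and is no measurement of where the RNA ends. In chromatin the entry had 252922, 227912 and 270646 normalized counts, and in nucleoplasm 11034, 11126 and 13979. The fractions did not overlap, and replicate 3 was the highest in each. Mean levels of 250493 ± 21470 and 12046 ± 1674 (SD, n = 3 each) were 20.8-fold apart, with a log2 fold change of 4.38 and a standard error of 0.14 (limma, adjusted p = 2.28e-05). The differences of same-numbered libraries were 4.52, 4.36 and 4.27. A single entry covers the whole gene, so short and long Neat1 cannot be told apart in the short-read values. The same holds for the misc_RNA genes inside both genes.

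Between the genes lay 1 unnamed entry on the plus strand (MSTRG.9211, chr19:5812443-5814173, 1731 bp), 9770 bases from the Malat1 start and 10534 bases from the Neat1 3′ end. Its normalized counts were 56.9, 48.2 and 215 in chromatin and 19.2, 19.2 and 57.3 in nucleoplasm. Replicate 3 was the highest library in both fractions, and the fractions overlapped. With means of 107 ± 94.1 and 31.9 ± 22.0 (SD, n = 3 each), its log2 fold change was 1.57 with a standard error of 0.72 and did not pass the test (limma, adjusted p = 0.130). Same-numbered libraries differed by 1.52, 1.29 and 1.89, and with the replicate number as a block the entry passed (limma, adjusted p = 0.00543), although no source used here says that a number marks a shared culture. Without chromatin replicate 3, the library with 215, the log2 fold change was 0.89.

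Thus 2 of the 3 entries, both on the minus strand, were higher in chromatin at an adjusted p under 0.05, against 26.9% of all 35830 entries, and none was lower, against 20.9%. With the replicate number as a block 3 of the 3 were higher. Both were also over 4-fold higher, as were 15.7% of all entries. The same 2 had all chromatin above all nucleoplasm libraries, as did 31.5% of all entries. The fold change of Neat1 ranked 499th from the top (percentile 98.6) and that of Malat1 1447th (percentile 96.0), where the median log2 fold change of all entries was 0.38 and the middle 50% lay between -0.72 and 1.56. Scaling each library to its ERCC standards, the RNA added before extraction, moved that median to 0.83 and quantile normalization moved it to 0.01. Relative to the median, Malat1 was higher in chromatin by 3.44 and Neat1 by 4.01 as deposited, by 3.72 and 4.29 with ERCC scaling and by 4.04 and 4.31 with quantile normalization. Each library was made from an equal amount of RNA of bulk nuclei, so the values are shares of a fraction's RNA. Whether the level of an RNA comes from few cells with much of it or from many cells with little cannot be told apart.

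**Figure D2:**
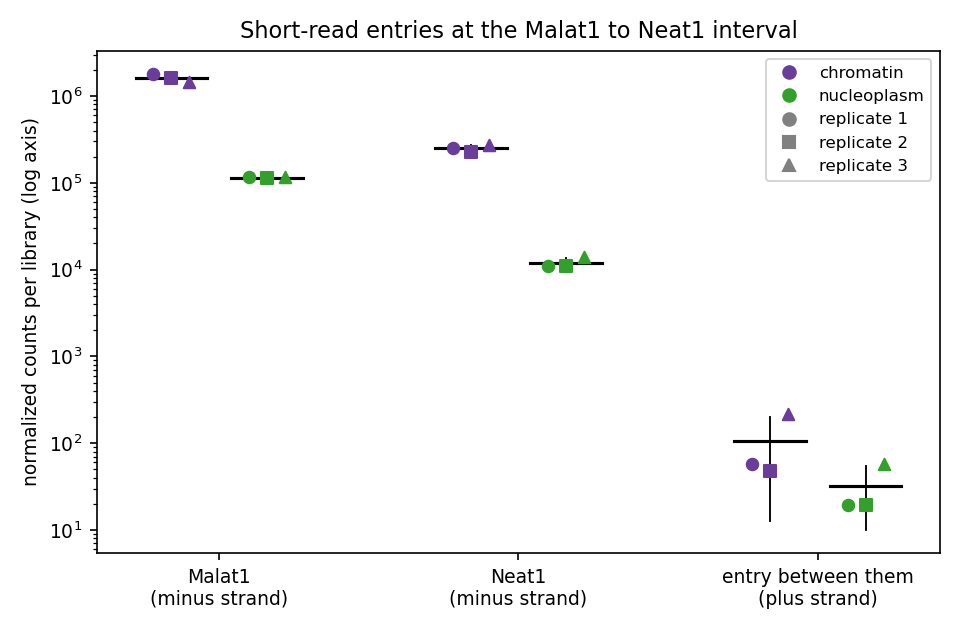
Normalized counts of the 3 short-read entries in each library (log axis), with replicates as symbols, fraction means as horizontal lines and ± 1 SD as vertical lines (n = 3). For Malat1 and Neat1 the chromatin points sit 14.2-fold and 20.8-fold above the nucleoplasm points on average, and for the plus-strand entry the fractions overlap.

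Levels of the genes were compared per kb of the entry's span. Malat1 stood at 200746 ± 22702 normalized counts per kb in chromatin and 14184 ± 296 in nucleoplasm (SD, n = 3 each). Neat1 stood at 12059 ± 1034 and 579.9 ± 80.6. By this measure Malat1 was the more abundant RNA in both fractions. The ratio of Malat1 to Neat1 per kb was 18.3, 18.3 and 13.7 in chromatin and 27.2, 25.9 and 21.2 in nucleoplasm. The Neat1 span is that of the long form, while its entry also holds any reads of the short form. The size of the ratio thus depends on a mix of forms that is unknown. All 3 chromatin ratios were below all 3 nucleoplasm ratios, and replicate 3 was the lowest in each fraction. The means were 16.8 ± 2.69 and 24.7 ± 3.13 (SD, n = 3 each), which is a difference of -0.57 on the log2 scale, and of -0.57, -0.50 and -0.63 in same-numbered libraries. Neat1 thus had the larger ratio of chromatin to nucleoplasm in 3 of 3 pairs. A two-sided exact permutation test gave p = 0.100, the smallest value that 3 libraries against 3 allow, so 0.05 could not be reached. Scaling a library by any single factor leaves this ratio as it is.

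**Figure D3:**
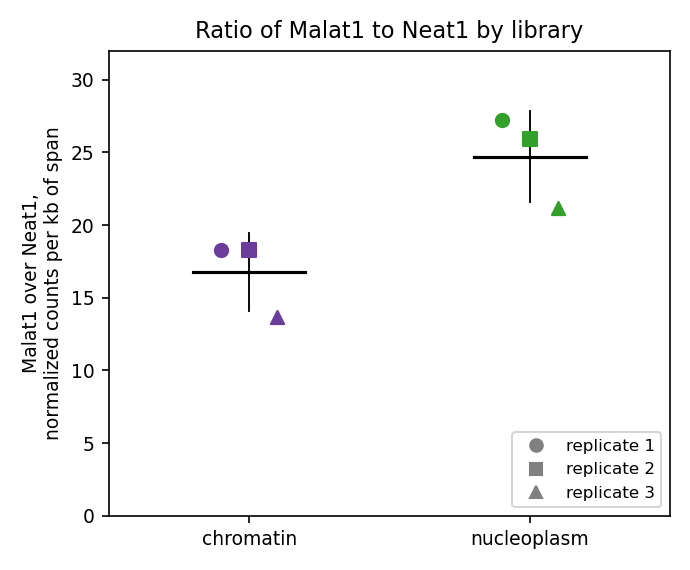
Ratio of Malat1 to Neat1 in normalized counts per kb of span for each of the 6 short-read libraries, with horizontal lines for the mean and vertical lines for ± 1 SD (n = 3). The chromatin ratios reach 18.3 at most and the nucleoplasm ratios begin at 21.2. Neat1 counts of both forms are divided by the span of the long form.

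As shares of all normalized counts of a library, Malat1 made up 1.65% ± 0.130 of chromatin and 0.114% ± 0.0171 of nucleoplasm (SD, n = 3 each). Neat1 made up 0.255% ± 0.0262 and 0.0120% ± 0.00333. The percent of an RNA's normalized counts that lay in chromatin, out of both fractions of a same-numbered pair, was 93.9, 93.5 and 92.6 for Malat1. For Neat1 it was 95.8, 95.3 and 95.1. The entry between them had 74.8, 71.5 and 79.0, and the median of the 15736 entries with a mean of at least 100 normalized counts was 45.2. With ERCC scaling the means rose from 93.4 to 95.8 for Malat1 and from 95.4 to 97.2 for Neat1, with that median at 57.6.

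Counting of the short reads used strand, so both strands of the interval could be compared. No plus-strand short-read entry overlapped either gene, although GENCODE has 1 plus-strand gene there, Gm37376 inside Malat1. Plus-strand counts came only from the entry between the genes and made up 0.00276%, 0.00260% and 0.0126% of the interval's normalized counts in chromatin and 0.0150%, 0.0155% and 0.0441% in nucleoplasm. Chromatin replicate 3 was close to the lowest nucleoplasm library, but the fractions did not overlap. The means were 0.00597% ± 0.00571 and 0.0249% ± 0.0167 (SD, n = 3 each). Malat1 and Neat1 make up nearly all of the counts in this share, so it falls where they rise, and it is no measure of the plus strand alone: the mean normalized count of the plus-strand entry itself was 3.35-fold higher in chromatin.

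Long-read values are TPM, an abundance that is scaled for transcript length, sums to the same total in each library and holds no depth. They exist for 2 chromatin libraries without a nucleoplasm counterpart, so no test was made. Of the 9 transcripts 8 were on the minus strand and 1 on the plus strand, and 7 were above 0 in both replicates. Among the 1310 transcripts of the table with at least 100 TPM on average and above 0 in both, the ratio of replicate 2 to replicate 1 had a standard deviation of 1.12 on the log2 scale, and the middle 50% lay between 0.746 and 1.45.

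The reference Malat1 transcript (NR_002847.2, chr19:5795690-5802671) had 1862 TPM in replicate 1 and 1932 in replicate 2, and was the 11th and the 20th most abundant transcript of the libraries. A second model with the same ends (MSTRG.42948.1) had 262 TPM in replicate 1 and was listed at 0 in replicate 2. The models stop at the annotated 3′ end of Malat1, and no minus-strand model of the interval reached the additional 1129 bases of the short-read entry. The long-read assembly holds reference transcripts, so these ends may come from the reference and are no measurement of the RNA ends. The reference transcript of long Neat1 (NR_131212.1, chr19:5824708-5845480, 20773 bp) had 11.1 and 10.0 TPM. Short Neat1 (NR_003513.3, chr19:5842296-5845480, 3185 bp) had 1.03 and 2.56 TPM, below the long form in each replicate. Summed on their own strand, Malat1 had 2124 and 1932 TPM and Neat1 had 12.1 and 12.6 TPM, and the ratio of Malat1 to Neat1 was 175 in replicate 1 and 154 in replicate 2. In the short reads of the same fraction the ratio per kb was 16.8 ± 2.69, on another scale and from another assembly. The long-read assembly took no strand from the reads, and a plus-strand model with 283 and 312 TPM covers both genes. Reads of either gene could be counted in that model. The sums, their ratio and the order of the Neat1 forms may therefore not be gene levels, which was not tested.

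A transcript on the plus strand (MSTRG.42947.1, chr19:5795049-5845480, 50432 bp) had bounds that enclose both genes and the space between them, reaching 641 bases past the annotated 3′ end of Malat1. Its exons were not examined, so the 50432 bp are a span and not the length of an RNA. The transcript had 283 and 312 TPM and ranked 427th and 403rd in the libraries, below the reference Malat1 transcript and above every other transcript of the interval in both replicates. It carried 11.6% and 13.7% of the TPM of the interval. The long-read assembly used here took no strand from the reads, and the stranded short-read table had no plus-strand entry over either gene.

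The remaining 4 transcripts lay between the genes on the minus strand and were low. MSTRG.42952.1 (chr19:5822751-5824651, 1901 bp) began at the base next to Gm27702, so that Neat1, Gm27702 and this model follow each other without a gap, and it was listed at 0 in replicate 1 with 2.90 TPM in replicate 2. Further from Neat1, MSTRG.42951.1 (928 bp) had 3.13 and 6.88 TPM. Still further, MSTRG.42950.1 (608 bp) had 1.53 and 5.63 TPM. MSTRG.42949.1 (818 bp) had 3.52 and 0.409 TPM and shared 684 bases with the plus-strand short-read entry, on the opposite strand. These replicate ratios, from 0.116 to 3.69, had no common direction.

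**Figure D4:**
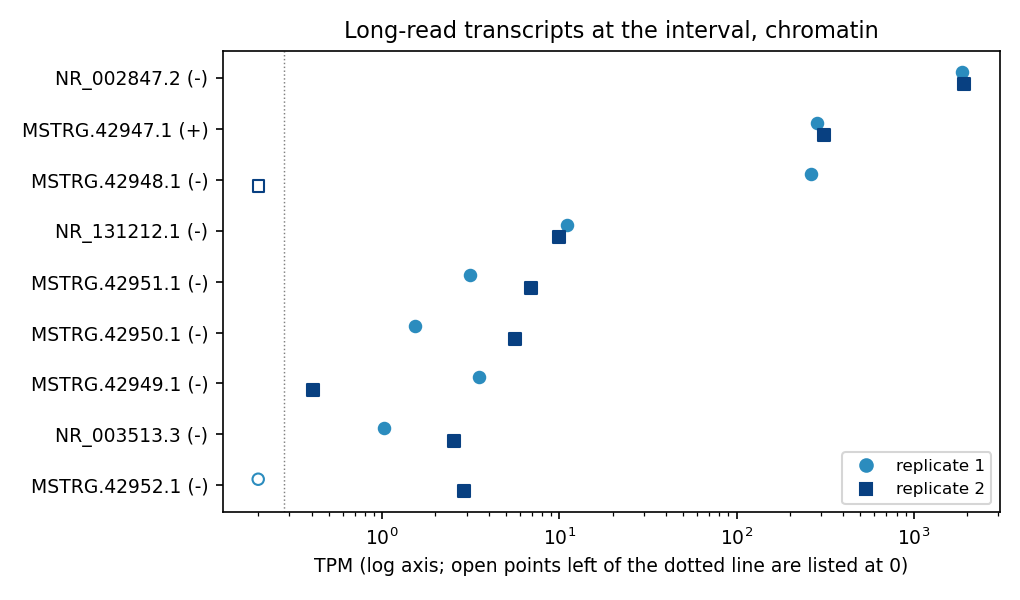
TPM of the 9 long-read transcripts of the interval in chromatin replicates 1 and 2 (log axis), with open points at the left for values listed at 0. The reference Malat1 transcript is at 1862 and 1932 TPM, the plus-strand transcript at 283 and 312, and long Neat1 at 11.1 and 10.0.

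Protein-coding neighbours of the interval were lower in chromatin or did not pass the test. Of 6 listed neighbours 5 were tested, 4 were lower in chromatin, against 20.9% of all entries, none was higher, against 26.9%, and 1 did not pass. Their median log2 fold change was -0.75, against 0.38 over all entries. Frmd8, the listed neighbour nearest to the Neat1 start, which codes for an adaptor of the iRhom proteins, had 1908, 2198 and 1297 normalized counts in chromatin and 4188, 4811 and 3326 in nucleoplasm (log2 fold change -1.21, standard error 0.23, limma adjusted p = 0.00637). Its fractions did not overlap. Ltbp3, a binding protein of latent TGF-beta, fell by 0.77 on the log2 scale. Dpf2, a subunit of the BAF chromatin remodelling complex, fell by 0.57 (limma, adjusted p = 0.0220). With ERCC scaling 0 of the 5 were lower (limma), and Dpf2 turned to 0.17. Dpf2 also lost its call without chromatin replicate 1, nucleoplasm replicate 1 or nucleoplasm replicate 2 (adjusted p 0.0574 to 0.0776).

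The unnamed and antisense entries within 10000 bp of the interval were picked after their values had been seen. Frmd8os, an antisense lncRNA whose plus-strand entry (MSTRG.9213) begins 176 bases from the Neat1 entry at the Neat1 start, had 74.2, 79.6 and 158 normalized counts in chromatin and 17.2, 20.4 and 52.9 in nucleoplasm. Its log2 fold change was 1.84 with a standard error of 0.53 (limma, adjusted p = 0.0296), and it lost the call when chromatin replicate 1, 2 or 3 or nucleoplasm replicate 1 or 2 was left out (adjusted p 0.0598 to 0.0912). Downstream of Malat1, the minus-strand entry MSTRG.9208 lay 7413 bases from the Malat1 entry, with 683, 649 and 2117 normalized counts in chromatin and 118, 123 and 371 in nucleoplasm (log2 fold change 2.47, standard error 0.64, limma adjusted p = 0.0201). Without nucleoplasm replicate 1 or 2 its adjusted p was 0.0671 and 0.0686. The closer minus-strand entry MSTRG.9209 had a log2 fold change of 0.33 (limma, adjusted p = 0.649). Replicate 3 was the highest library of its fraction at all 3 of these entries.

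Transcripts that code for paraspeckle proteins were mostly higher in chromatin. Of 20 listed genes 17 had a tested entry, 12 were higher, against 26.9% of all entries, 3 were lower, against 20.9%, and 2 did not pass. The median log2 fold change was 1.07 against 0.38 over all entries. Pspc1, a core paraspeckle protein, had 40711, 35707 and 35659 normalized counts in chromatin and 7335, 6289 and 6933 in nucleoplasm (log2 fold change 2.45, standard error 0.10, limma adjusted p = 2.68e-05). Taf15, an RNA-binding protein, rose by 2.20. In the opposite direction, Nono, a core paraspeckle protein and binding partner of PSPC1, fell by 1.33, with 7969, 8316 and 5784 in chromatin against 19217, 18678 and 17034 in nucleoplasm. Hnrnpk, an RNA-binding protein with a role in the choice of the Neat1 isoform, fell by 1.36. With ERCC scaling 1 of the 17 was lower, and Hnrnpk had a log2 fold change of -0.63 (limma, adjusted p = 0.0788). These are values of the messages in the nuclear fractions and not of the proteins.

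For nuclear speckle proteins, 13 of 16 listed genes were tested, 7 were higher in chromatin, against 26.9% of all entries, none was lower, against 20.9%, and 6 did not pass. The median log2 fold change of 0.36 was close to the 0.38 of all entries. Clk1, a kinase of splicing factors, had 9834, 8757 and 16941 normalized counts in chromatin and 2317, 2153 and 2058 in nucleoplasm, a log2 fold change of 2.38 (limma, adjusted p = 4.90e-04). Srsf11, an SR protein, rose by 2.14 (limma, adjusted p = 4.12e-05). At the low end Acin1, a protein of the splicing-linked ASAP complex, had a log2 fold change of -0.35, and Pnn, a speckle protein, of -0.12, neither past the test. With ERCC scaling 11 of the 13 were higher and both of these turned to 0.39 and 0.61, and with quantile normalization 4 of the 13 were lower.

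Messages of the proteins that process or stabilise the Malat1 end were lower in chromatin or did not pass the test. Of 12 listed genes 10 were tested, 5 were lower in chromatin, against 20.9% of all entries, 0 were higher by limma, against 26.9%, and 5 did not pass. Of those that did not pass, 1 had a mean below 10 normalized counts, near the floor. The median log2 fold change was -0.86, against 0.38 over all entries. Pop5, a subunit of RNase P, had 399, 473 and 365 normalized counts in chromatin and 1987, 2155 and 1976 in nucleoplasm (log2 fold change -2.31, standard error 0.12, limma adjusted p = 3.89e-05). Pop7, a further subunit, fell by 1.82. Pop1, the largest protein of the enzyme, had a log2 fold change of 0.23, and Mettl16, a protein that binds the Malat1 triple helix, of 0.19, neither past the test. With ERCC scaling 2 of the 10 were higher, Pop1 at 0.96 and Mettl16 at 0.92, and 2 were lower. Pop1 also passed without nucleoplasm replicate 3 (limma, adjusted p = 0.0430).

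Other nuclear lncRNAs were mostly higher in chromatin. Of 10 listed, 8 were tested, 6 were higher, against 26.9% of all entries, none was lower, against 20.9%, and 2 did not pass. Those 2 had means below 10 normalized counts over the libraries, near the floor, and they enter the median given here. Of the 8, 5 were over 4-fold higher, against 15.7% of all entries, and the median log2 fold change was 3.43 against 0.38. Kcnq1ot1, the antisense RNA of the imprinted Kcnq1 domain, had 2345, 2101 and 1202 normalized counts in chromatin and 90.9, 65.9 and 74.6 in nucleoplasm, a log2 fold change of 4.55 with a standard error of 0.28 (limma, adjusted p = 6.61e-05). Its fold change was above that of Neat1. Pvt1, with 3.93, and Mir17hg, the host of a miRNA cluster, with 3.42, lay on either side of Malat1. Gas5, a host of small nucleolar RNAs, had a smaller log2 fold change of 1.04 (limma, adjusted p = 0.00762).

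**Figure D5:**
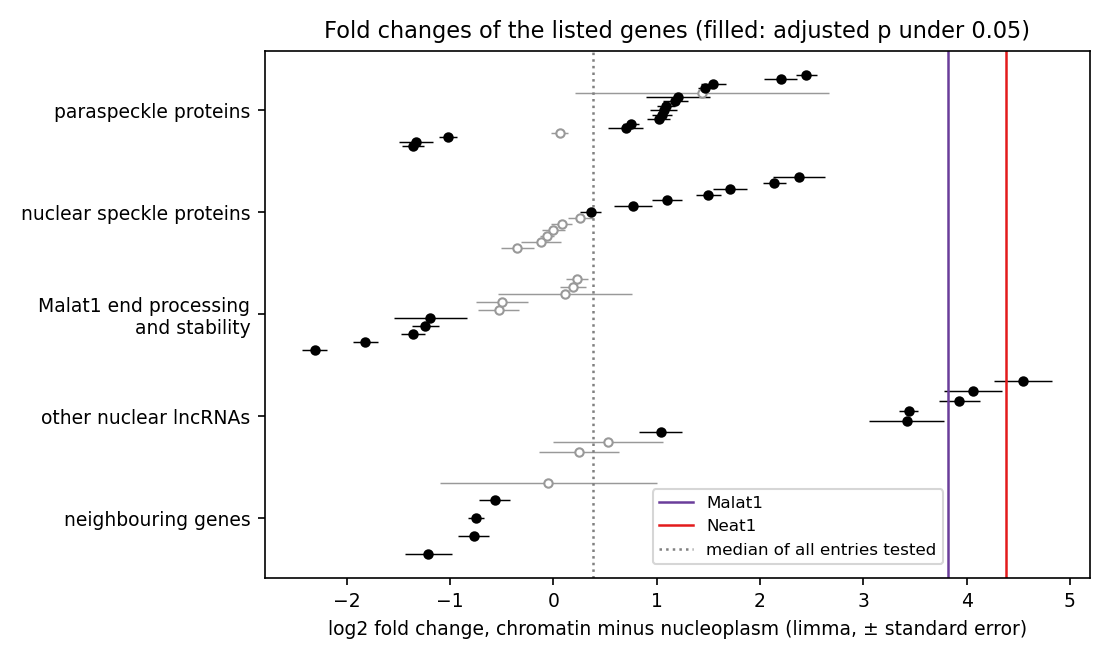
Log2 fold change of chromatin over nucleoplasm (limma, ± standard error) for the tested genes of the 5 lists, with filled points for an adjusted p under 0.05 and lines at the values of Malat1, Neat1 and the median of all entries. Malat1 at 3.82 and Neat1 at 4.38 lie beyond every paraspeckle, speckle, end-processing and neighbouring gene plotted, the highest of which is Pspc1 at 2.45, and among the other nuclear lncRNAs.

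The genes whose pattern was most like that of each member were sought among 11786 other named entries with a mean of at least 100 normalized counts, by the Euclidean distance of log2 values centred over the 6 libraries. For Malat1 they were 1700001J11Rik at a distance of 0.14, Lncpint at 0.26, Auts2 at 0.28, Gm15319 at 0.29 and Gm14532 at 0.32, where the median of all was 5.28. Auts2, a large protein-coding gene, had means of 236046 and 18198 normalized counts in chromatin and nucleoplasm, and the lncRNA Lncpint 67234 and 4265. For Neat1 they were Gm40909 at 0.23, Lncppara at 0.24, Gm35614 at 0.33, 1700086D15Rik at 0.37 and Ldhal6b at 0.43, with a median of 5.98. Malat1 and Neat1 were 0.82 apart, with 66 genes nearer to Malat1 than Neat1 was, and 32 genes nearer to Neat1 than Malat1 was. These distances describe the 6 libraries and were not tested.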

How the data were processed

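The authors aligned short reads to mm10 with hisat2 2.1.0, then assembled and re-estimated them with StringTie guided by reference transcripts. They deposited gene counts divided by DESeq2 size factors (unit: signal, a normalized count). For long reads aligned with minimap2, the authors deposited StringTie TPM. Dividing each short-read value by that of 1 read gave whole reads, within 0.01, for 100% of values. Between libraries of 1 fraction the chi-square per entry was 50.6 to 2477, above counting noise, so each was 1 replicate.

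The fractions' log2(normalized count + 1) values were tested by limma 3.58.1 (R 4.3.3, variance trend, Benjamini-Hochberg adjustment over 35830 entries), and single ratios with an exact permutation test (scipy 1.17.1). Because the values are normalized, edgeR 4.0.16 and DESeq2 1.42.0 on recovered reads were alternatives. Others changed pseudocount, filter, trend, scaling and libraries, or blocked by replicate number. Symbols came from RefSeq for 82.1% of 44536 accession entries and from GENCODE M21 genes sharing at least 0.5 of the joint span on the same strand for 65.8% of 20637 assembled loci, and a listed gene that got no entry was left out. The members and lists were chosen with earlier results of these data known. Named were all entries of the interval, the 2 largest and 2 smallest fold changes of each list among genes with a mean of at least 100, and the 5 nearest genes, except 1 gene of the neighbour list that is not reported here. Precision is limited by 3 libraries a fraction. Sequences came from the GENCODE M21 transcripts.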

Additional observations from a re-analysis of the deposited data

How the results depend on the processing

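Over 18 alternatives the log2 fold change of the Malat1 entry ranged from 3.71 to 4.55 and that of Neat1 from 4.27 to 5.12, and both passed the test in each. Leaving out 1 library gave 3.74 to 3.90 for summed Malat1, 4.32 to 4.50 for summed Neat1 and -0.67 to -0.43 for the difference of their log2 ratios, with an exact permutation p of 0.200 that cannot be smaller. With rows that overlap a gene only, the plus-strand share was 0. ERCC scaling moved the percent in chromatin to 95.8 for Malat1 and 97.2 for Neat1.

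The replicate numbers of the fractions were not taken to pair the samples, since no source used here says that a number marks a shared culture. Deviations of same-numbered libraries correlated at 0.0975, 0.0883 and 0.222, others at -0.138 to 0.0606, and each library correlated best with its own number. The main test thus leaves out a pairing that may exist. With the replicate number as a block, 3 entries of the interval were higher, MSTRG.9211 included at 1.57 (limma, adjusted p = 0.00543), and pairs give a sign-flip p of 0.25 at least.

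With ERCC scaling the lower calls were 1 of the paraspeckle list, 2 of the end-processing list and 0 of the neighbours, and the higher calls were 11 of the speckle list and 2 of the end-processing list. Quantile normalization gave 4 lower speckle genes and 1 higher end-processing gene, and leaving out 1 library gave 0 to 1 of the latter. Signs turned with ERCC scaling for Acin1 (0.39), Pnn (0.61) and Dpf2 (0.17), and for MSTRG.9209 with quantile normalization (-0.41). Leaving out 1 library gave -0.27 to 0.08 for Pnn, turned without chromatin replicate 3, and -0.09 to 0.79 for MSTRG.9209, turned without nucleoplasm replicate 1 and, at -0.04, without chromatin replicate 3. The causes were not tested. These list alternatives were chosen after seeing the data. The planned comparison of long and short Neat1 in the short reads was not run, since a single entry covers the gene. Among the 3 short-read entries of the interval depth limits the plus-strand entry most, with 16 reads in its lowest library. Some listed genes had fewer.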

Other observations

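Replicate 3 stood apart in both fractions at several of these RNAs. The ratio of Malat1 to Neat1 in normalized counts was 5.33 in chromatin replicate 3 against 7.16 and 7.15 in replicates 1 and 2, and 8.28 in nucleoplasm replicate 3 against 10.6 and 10.1. In the same libraries 8 of the 9 tested cardiomyocyte markers were lowest in replicate 3, in chromatin and in nucleoplasm alike, Gata4 being the exception as the highest in replicate 3, and 4 of the 5 fibroblast markers were highest in replicate 3 in both fractions. As examples chosen after their values were seen, Myl4, an atrial myosin light chain, had 3184 normalized counts against 10759 and 12770 in chromatin, and 4828 against 19380 and 21683 in nucleoplasm. Col1a1 had 115918 against 101002 and 112855 in chromatin and 344726 against 215909 and 211147 in nucleoplasm. How often replicate 3 was the lowest or highest over all entries was not counted, so these counts cannot be called particular to the markers. Over all entries, the chi-square per entry in chromatin was 219 and 253 for pairs with replicate 3, against 50.6 without it. In nucleoplasm it was 1449 and 737 with replicate 3, against 2477 without it. Whether these differences between replicates bear on the values of Malat1 and Neat1 was not tested.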
